A study of Mus musculus with 12 samples.

Results

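The transcriptome described here is that of HT22 cells given a control siRNA and kept at normal iron, which were 3 of the 12 libraries of the study (siControl, replicates 1 to 3). HT22 is an immortalized mouse line derived from hippocampus, and the labels call it hippocampal neuron cells. The other 9 libraries came from cells given Ncoa4 siRNA, from cells treated with the iron chelator deferoxamine (DFO, 100 µM for 24 h) and from cells given both, and they were not used here. The siControl cells had the genotype label control, received the control siRNA by liposome and no DFO, and grew in serum-containing high-glucose medium, so they were free of DFO but were transfected cells. All 3 libraries came from this cell line in culture, and the labels call them biological replicates. Members were chosen by label alone. With 1 group there was no contrast and no test, and each value is given per library or as mean ± SD (n = 3), in which the SD measures the spread between these 3 cultures.

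HT22 cells are widely used to study glutamate toxicity, in which extracellular glutamate blocks cystine uptake, depletes glutathione and leads to oxidative death. They are also described as a model of cholinergic neurons. Iron enters most cells bound to transferrin through the transferrin receptor, is stored inside a ferritin shell built of heavy and light chains, is released when the cargo receptor NCOA4 carries ferritin to the lysosome, and leaves through ferroportin. Iron regulatory proteins bind hairpins called iron-responsive elements (IREs) in several of these mRNAs. The gene groups below therefore cover lineage markers, receptors, energy metabolism and iron handling.

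Values were deposited as FPKM (fragments scaled by transcript length and by library size), so levels of different genes can be compared per length. A gene was called expressed when its FPKM was 1 or more in all 3 libraries, low when it was above 0 in any library but not expressed, and listed at 0 when all 3 values were 0. The deposited tables hold no counts, but the low values fell into steps. Among 2279 genes with a single annotated transcript, a single fragment on a transcript of 1 kb was worth 0.345, 0.276 and 0.295 FPKM in replicates 1, 2 and 3. These steps correspond to totals of about 2900000, 3620000 and 3390000 fragments a library in the FPKM scaling. The study's methods give a higher number of reads as the target for each sample, so these totals are not the sequenced depth. Of the 99, 112 and 103 values above 0 and below 1.5 steps, 78.8%, 79.5% and 77.7% lay within 10% of exactly 1 step. The step was set at the peak of the low values themselves, so this nearness is partly built in. Values below about 0.1 FPKM therefore rest on very few fragments. On short transcripts higher values do too, since a single fragment on 1 kb was worth 0.276 to 0.345 FPKM. Intervals on such values would cover counting error only.

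Replicate 1 stood apart from the other two in a way that, over expressed protein-coding genes as a whole, followed transcript length. Its median log2 ratio to the mean of replicates 2 and 3 was -0.34 over 395 expressed protein-coding genes whose longest transcript was at most 1000 bases, and 0.19 over 1499 genes above 6000 bases. Replicates 2 and 3 tracked each other across the same bins. Of 9926 expressed protein-coding genes, 4455 were lower and 5471 higher in replicate 1 than the mean of replicates 2 and 3 (median log2 0.031). By the same measure, 77 of 79 expressed cytosolic ribosomal protein genes were lower (median -0.42). Of 76 expressed subunit genes of respiratory complexes I to V, 70 were lower (median -0.36). Of 58 expressed replication-dependent histone genes, 57 were higher (median 0.52). The histone genes thus went in the opposite direction to the shortest bin. Of 79 expressed small RNA genes, 49 were also higher in replicate 1 (median log2 0.16). The 3 protein-coding families were chosen after their values were seen, and the part of transcript length or depth in this pattern was not tested. Without replicate 1, 10410 genes were expressed and 10867 were listed at 0, beside 10292 and 10478 in all 3 libraries. Leaving out replicate 2 or 3 instead gave 10410 and 10409 expressed, and 10962 and 10926 listed at 0. Such counts cannot fall when a library is left out, so this change was not particular to replicate 1. Across all genes, Pearson's r of log2(FPKM + 0.1) was 0.983, 0.983 and 0.984 for the pairs of replicates 1 and 2, 1 and 3, and 2 and 3 (across genes, which are not independent replicates). Among 6145 protein-coding genes with a mean of at least 10, the median coefficient of variation was 8.50%, with quartiles of 5.07% and 13.0%.

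**Figure D1:**
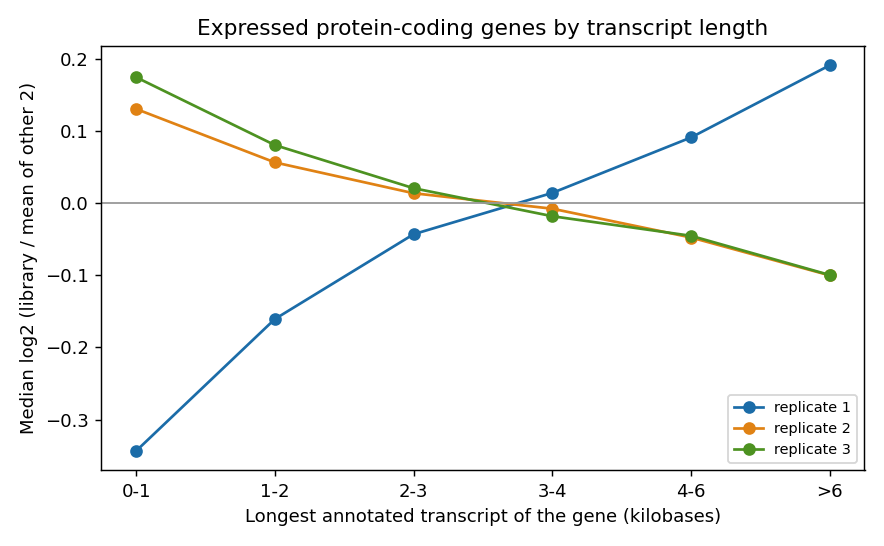
Median log2 ratio of each library to the mean of the other two (vertical axis) for expressed protein-coding genes grouped by the length of their longest annotated transcript in kilobases (horizontal axis); each line is a library. Replicate 1 runs from -0.34 for the shortest to 0.19 for the longest transcripts, while replicates 2 and 3 run together in the opposite direction.

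Of 24343 genes, 10292 were expressed (42.3%), 3573 were low and 10478 were listed at 0 (43.0%). Of 20490 protein-coding genes, 9926 were expressed (48.4%), and these shares are the background against which each gene list is given. The median FPKM of the expressed protein-coding genes was 13.8. A mean of 100 or more was reached by 518 protein-coding genes and a mean of 1000 or more by 27. The 100 highest protein-coding genes held 23.2%, 25.2% and 25.3% of the protein-coding FPKM in replicates 1 to 3, and 47 of these 100 encoded cytosolic ribosomal proteins.

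The head of the protein-coding ranking was made of translation, cytoskeleton, chromatin, chaperone and ferritin genes. Rplp1, a protein of the ribosomal stalk, was at 1935, 3002 and 3184 FPKM in replicates 1 to 3 (2707 ± 675). Its lower value in replicate 1 put it below Eef1a1 in that library, although it ranked first by mean. Eef1a1, the elongation factor that delivers aminoacyl-tRNA, was steadier at 2309 ± 57.7. S100a4, a calcium-binding protein of motile and mesenchymal cells, was at 1620, 2488 and 2610 FPKM. The ribosomal stalk gene Rplp2 (2200 ± 33.2), the histone gene Hist2h2bb (2186 ± 515) and Actb (2076 ± 180) came next, and the ranges of neighbouring genes overlapped. Hsp90ab1, a cytosolic chaperone, was at 2063 ± 57.2, Rpl8 at 1913 ± 137 and Rpl41 at 1629 ± 380. The intermediate filament gene Vim ranked 10 at 1600 ± 58.3, the galectin gene Lgals1 was at 1333 ± 184, and the ferritin heavy chain gene Fth1 ranked 12 at 1314 ± 25. Rps26 and Rps23 followed, with means of 1299 and 1274. Sequence identity limits some of these levels: 45.9% of the 75-base windows of Rplp1, 44.8% of those of S100a4, 49.8% of those of Hist2h2bb and 26.6% of those of Eef1a1 also occur in transcripts of other annotated genes.

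**Figure D2:**
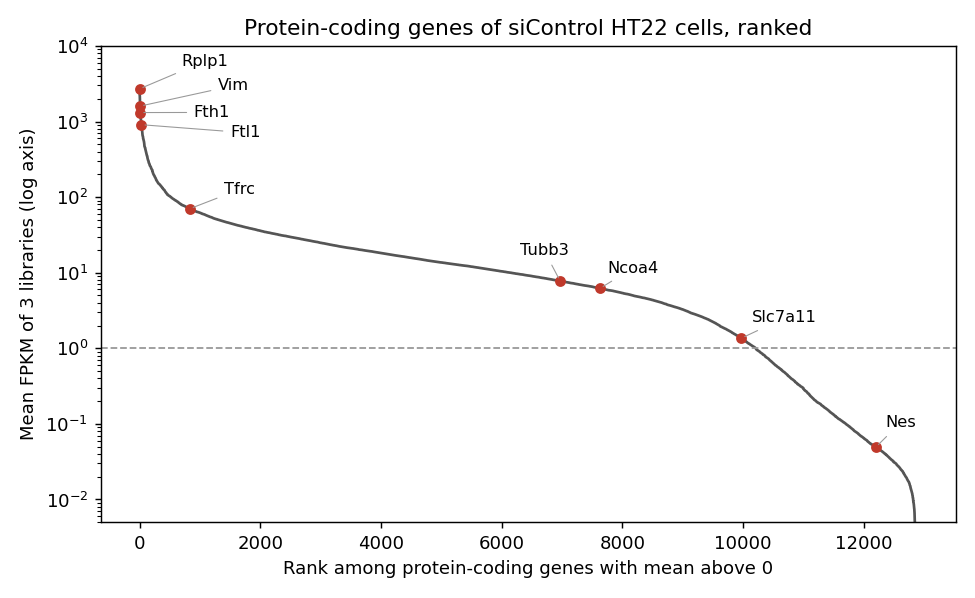
Mean FPKM of the 3 siControl libraries on a log axis (vertical) against the rank of each protein-coding gene with a mean above 0 (horizontal), with named genes as red points and a dashed line at 1 FPKM. Rplp1, Vim, Fth1 and Ftl1 sit at the top left, Tubb3 at rank 6968 and Nes at rank 12199.

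The most and least reproducible genes with a mean of at least 10 were also taken from this ranking. Eef1g, an elongation factor subunit, was at 694, 697 and 695 FPKM, a coefficient of variation of 0.176%. Etfdh (0.190%), Rabgap1 (0.211%), the replication licensing gene Mcm3 (0.242%) and the mitotic kinesin gene Kif23 (0.293%) followed. At the other end, Rnaset2b was at 12, 5.68 and 30.0 FPKM (79.3%) and Rpl26 at 13.8, 120 and 70.6 FPKM (78.2%). Pcbd2 (59.1%), Mrps18c (57.5%) and Churc1 (47.2%) completed that group. For Rnaset2b, 51.4% of 75-base windows are shared, most with Rnaset2a, and for Rpl26 17.1% are shared, most with Gm15772. The transcribed pseudogene Gm15772 was itself at 1935, 2629 and 2730 FPKM, and 71.4% of its windows are shared, most with Rpl26. The effect of this sharing on the Rpl26 values was not tested.

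The 5 genes set out to check the identity of the line divided into abundant and scarce. Vim (GRCm38 chr2:13573927-13582826, plus strand), the filament gene of mesenchymal and progenitor cells, was at 1662, 1592 and 1546 FPKM. Fth1 (chr19:9980598-9985098, plus strand) was at 1333, 1286 and 1323 FPKM, and Ftl1 (chr7:45457944-45459884, minus strand), the ferritin light chain gene, was at 835, 930 and 957 FPKM. Tubb3 (chr8:123411424-123422015, plus strand), a tubulin used as a neuronal marker, was at 8.28, 7.42 and 7.62 FPKM and ranked 6968 among protein-coding genes. Nes (chr3:87971078-87980451, plus strand), the intermediate filament gene of neural progenitors, was at 0.0546, 0 and 0.0933 FPKM. With its longest transcript of 6126 bases, those Nes values correspond to about 0.97, 0 and 1.94 fragments, whereas Tubb3 rested on about 44.9 to 50.2 fragments a library. The neuronal marker Tubb3 was thus expressed at a low level, and the progenitor marker Nes rested on 0 to about 1.94 fragments a library.

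Of 16 pan-neuronal genes, 3 were expressed, 4 were low and 9 were listed at 0, against 48.4% of all protein-coding genes expressed. Ncam1, an adhesion molecule of neurons and other cells, was highest at 23.6, 19.5 and 18.5 FPKM. Tubb3 came second, and Eno2, the neuronal enolase, was at 4.30, 6.12 and 3.48 FPKM, with no overlap between the 3 genes. Syp, the synaptic vesicle protein synaptophysin, reached 0.205 ± 0.18. The nuclear marker of mature neurons Rbfox3, the dendritic protein gene Map2 and the exocytic SNARE gene Snap25, which were the defining members beside Tubb3, were listed at 0. So were Dcx, Gap43, Uchl1, Elavl4, Nefm and Nefh.

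Of 24 genes of synaptic machinery, 8 were expressed, 11 were low and 5 were listed at 0, against 48.4% of all protein-coding genes expressed. The median of their mean FPKM was 0.50. The median over all genes was 0.15, but that set includes many noncoding genes and is not a matched background. Vamp2, a vesicle SNARE also used outside neurons, was at 16.7, 17.4 and 17.7 FPKM. The postsynaptic scaffold gene Dlg4 was at 15.1, 13.3 and 11.4 FPKM, below Vamp2 in each library. Nlgn2, an adhesion gene of inhibitory synapses, was at 9.98 ± 0.33, and Syn1, which coats synaptic vesicles in neurons, at 5.43, 5.29 and 5.83 FPKM. Syn1 rested on about 51.4 to 64.4 fragments a library. Syt1, the calcium sensor of fast transmitter release, was at 0.0712, 0 and 0.0608 FPKM, about 0.99, 0 and 0.99 fragments. Of the large presynaptic scaffold genes, Bsn was low at 0.749 ± 0.071 and Pclo was listed at 0.

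Transcription factors of hippocampus and forebrain were present for a minority of the list, with 6 of 21 expressed and 13 listed at 0. Zbtb20, a factor of hippocampal pyramidal neurons that many other tissues also use, was at 17.4, 9.95 and 10.1 FPKM. Emx2, a factor of medial cortex and hippocampus, was at 4.70 ± 1.2, below Zbtb20 in each library. The interneuron factors Dlx2 (2.76 ± 0.39) and Dlx1 (2.74 ± 0.68) were also expressed. Prox1, the factor of dentate granule cells, the neurogenic factor Neurod1 and the cortical factor Emx1, all defining members, were listed at 0, as were Pax6, Neurod2, Neurod6, Fezf2, Bcl11a and Bcl11b. Tbr1 was at 0.0754 ± 0.0089.

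Hox genes, which specify position along the trunk and hindbrain and are not used by the developing forebrain, were read in the same libraries. This family was chosen after its values were seen. Of 39 Hox genes, 14 were expressed, 4 were low and 21 were listed at 0, against 48.4% of all protein-coding genes expressed. Hoxd8 was highest at 24.4, 21.4 and 26.6 FPKM. Hoxa7 was at 12.4 ± 1.3, Hoxc6 at 8.50 ± 0.87 and Hoxd4 at 8.39 ± 2.4. Members of all 4 clusters were expressed, among them Hoxb6 at 4.76 ± 0.71.

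Markers of neural progenitors and of glia were mixed. Of 12 progenitor genes, 3 were expressed: Vim, the RNA-binding protein gene Msi2 (28.4 ± 4.0) and its relative Msi1 (1.63, 1.11 and 2.39 FPKM). Sox2, Sox1, Pax6, Fabp7, Prom1, Hes1 and Hes5 were listed at 0, and Notch1 was at 0.0316 ± 0.030. Of 11 astrocyte genes, 4 were expressed, led by the glutamate transporter gene Slc1a3 at 45.6, 36.1 and 44.7 FPKM. Sox9 was at 38.3 ± 2.2, the gap junction gene Gja1 at 25.3 ± 1.5 and glutamine synthetase (Glul) at 3.30 ± 0.95. Those 4 genes are also used by cells other than astrocytes, and of the defining members Gfap and Aqp4 were listed at 0 and Aldh1l1 was at 0.324 ± 0.036.

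Lists of the remaining brain cell types had few expressed members. For the oligodendrocyte lineage, 2 of 12 were expressed, Cspg4 (23.0 ± 3.3) and Pdgfra (20.2 ± 1.6), both of which mesenchymal cells also carry. Its defining genes Olig2 and Mog were listed at 0, and Mbp was above 0 in replicate 2 alone (0.197). For microglia and macrophages, 1 of 12 was expressed, Tmem119, at 10.3, 11.8 and 9.98 FPKM. Tmem119 shares no 75-base window with another annotated gene. The defining leukocyte genes Ptprc and Aif1 were listed at 0, and Itgam was above 0 in replicate 3 alone (0.0615). Cd68, a lysosomal protein gene, was at 0.982, 2.34 and 2.29 FPKM and missed the call through replicate 1, so 2 members were expressed when that library was left out. For endothelium and mural cells, 2 of 12 were expressed, Pdgfrb (25.7 ± 2.1) and Des (3.08 ± 0.34), while Cdh5 and Cldn5 were listed at 0 and Pecam1 was at 0.0925 ± 0.097. For epithelium, 1 of 12 was expressed, the cadherin gene Cdh1, at 4.75, 4.09 and 4.84 FPKM, and Epcam was listed at 0.

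Mesenchymal and fibroblast genes were present nearly throughout, with 34 of 38 expressed, 2 low and 2 listed at 0. The median of their mean FPKM was 29.2, against 0.15 over all genes and 13.8 over expressed protein-coding genes. After S100a4 and Vim came Col1a2 (chr6:4504814-4541544, plus strand), a chain of type I collagen, at 1107, 984 and 915 FPKM. Its partner chain gene Col1a1 was at 439, 374 and 337 FPKM, so that Col1a2 exceeded Col1a1 2.62 ± 0.099 times within each library. The matrix protein genes Sparc (462 ± 27) and Fn1 (319, 271 and 249 FPKM) and the glycoprotein gene Thy1 (12.5 ± 0.89), which also marks neurons, were expressed in every library. The transcription factor genes of mesenchymal state were expressed too, with Prrx1 at 44.4 ± 3.0, Twist2 at 30.9 ± 3.1, Snai2 at 22.2 ± 3.2, Zeb2 at 18.8 ± 1.7, Twist1 at 18.6 ± 1.1 and Zeb1 at 14.9 ± 1.2. The smooth muscle actin gene Acta2 was at 2.06 ± 0.86, and the contractile gene Tagln and the activated-fibroblast gene Fap were listed at 0. The lists share some members (Vim, Pdgfra and Pdgfrb stand in more than a single list).

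Matrix and adhesion families, chosen after their values were seen, were uneven inside. Of 44 collagen genes, 15 were expressed, 19 were low and 10 were listed at 0. Col3a1 (289 ± 7.2), Col6a1 (90.4 ± 6.3), Col4a5 (82.8 ± 6.4) and Col5a1 (73.8 ± 7.6) followed the type I chains. Of 27 integrin genes, 10 were expressed, with the common beta chain Itgb1 at 194, 201 and 196 FPKM and the alpha chains Itgav, Itga5 and Itga3 at 38.8 ± 4.0, 28.0 ± 2.4 and 23.7 ± 3.4. Of 52 keratin genes, 1 was expressed, Krt80, at 8.09 ± 1.8. Guidance genes were close to the share of all protein-coding genes expressed (48.4%), with 13 of 30 semaphorin and plexin genes and 12 of 22 ephrin and Eph genes. Plxnb2 (66.5 ± 8.6) and Ephb4 (22.5 ± 1.4) led these families. The 20 general cytoskeleton genes were all expressed, with a median of mean FPKM of 367.

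**Figure D3:**
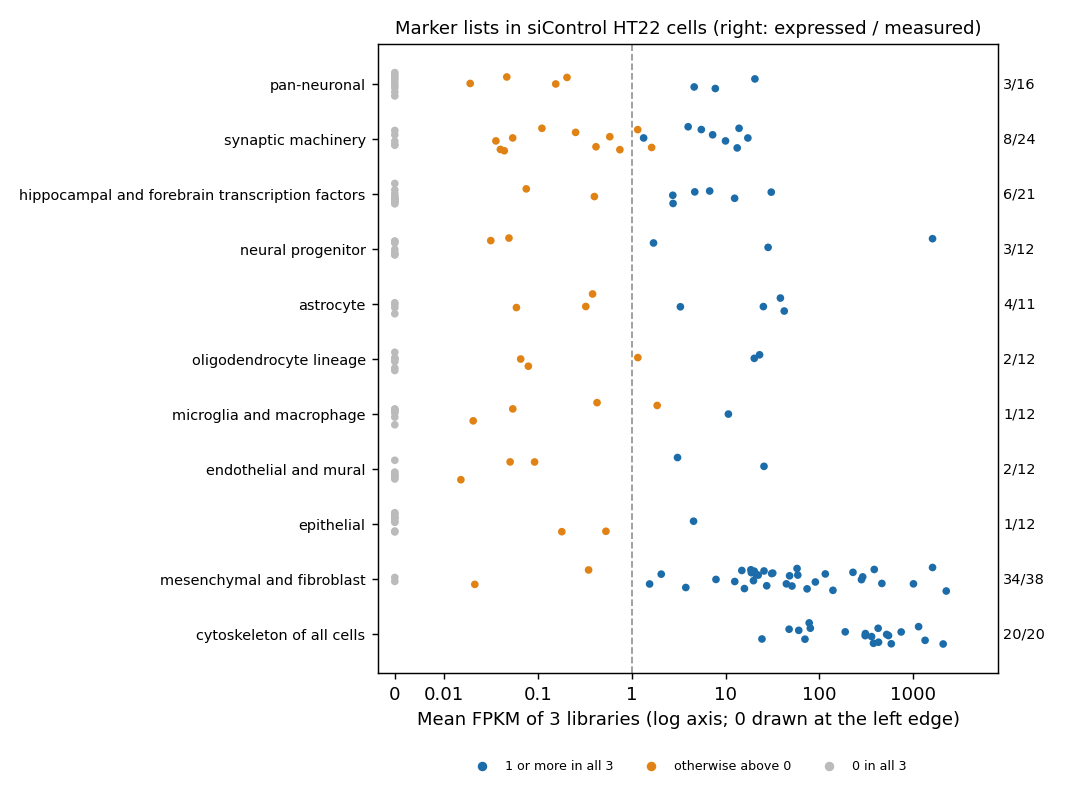
Mean FPKM of each gene (points; log axis, with 0 drawn at the left edge) in lineage marker lists (rows), coloured by class (blue expressed, orange low, grey listed at 0), with the number expressed of the number measured at the right. Mesenchymal genes (34 of 38) and general cytoskeleton genes (20 of 20) lie mostly right of the dashed line at 1 FPKM, whereas the neuronal, glial, endothelial and epithelial rows have most points below it or at 0.

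Receptors that bind fast transmitters were scarce. Of 18 ionotropic glutamate receptor genes, 1 was expressed and 12 were listed at 0, and 0 reached an FPKM of 2 in all libraries. After rescaling without small RNA genes, which also raised all levels 2.62 to 2.71 times, 2 passed. The expressed gene was the kainate receptor subunit Grik2, at 3.45, 2.30 and 1.68 FPKM, about 94.3, 78.6 and 53.8 fragments. The NMDA receptor subunit genes Grin1, Grin2a and Grin2b and the AMPA receptor subunit gene Gria2 were listed at 0, Gria1 was above 0 in replicate 3 alone (0.0535), and Grin2d was at 0.476 ± 0.074. The 8 metabotropic glutamate receptor genes were all listed at 0. Of 15 GABA receptor genes, 13 were listed at 0 and 1 was expressed, Gabbr1, at 14.0, 15.2 and 16.8 FPKM. Gabbr2, whose protein pairs with that of Gabbr1 in the working receptor, was listed at 0.

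Cholinergic genes were read because the line is used as a cholinergic model. Of 25 genes, 1 was expressed, 5 were low and 19 were listed at 0. The expressed gene was the muscle-type nicotinic subunit Chrnb1, at 3.10, 4.03 and 2.37 FPKM. Choline acetyltransferase (Chat) and the vesicular acetylcholine transporter (Slc18a3) were listed at 0, and so was acetylcholinesterase (Ache). The high-affinity choline transporter gene Slc5a7, a defining member, was low but above 0 in each library, at 0.389, 0.207 and 0.333 FPKM, about 5.85, 3.89 and 5.84 fragments. The 5 muscarinic receptor genes were listed at 0 or reached a mean of at most 0.116 (Chrm4).

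Genes that make or load other transmitters were also few, with 2 of 14 expressed. Among these was the glutaminase gene Gls2 (3.35 ± 0.76), which serves general metabolism as well. The vesicular glutamate transporter gene Slc17a7 was above 0 in replicate 1 alone (0.117), and Gad1, Gad2, Slc17a6, Slc32a1 and Th were listed at 0. Of 42 monoamine, adenosine, purine, cannabinoid and opioid receptor genes, 27 were listed at 0, and 7 passed after the rescaling that raised all levels. At the deposited scale, 4 were expressed. Among these were the ATP-gated channels P2rx4 (13.1 ± 1.2) and P2rx5 (3.94 ± 0.38) and the adenosine receptor gene Adora2b (3.37 ± 0.94). The 5 dopamine receptor genes were listed at 0.

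Of 42 voltage-gated channel genes, 7 were expressed, 16 were low and 19 were listed at 0, and 3 reached an FPKM of 2 in all libraries. Calcium channel subunits led, with Cacnb3 at 43.4, 37.4 and 33.6 FPKM, the pore subunit Cacna1a at 11.3, 10.1 and 11.2 FPKM and Cacnb1 at 5.07 ± 0.68. The sodium channel pore genes of neurons Scn8a and Scn2a1 were listed at 0 and at 0.458 ± 0.17. Growth factor, neurotrophin and cytokine receptors stood at the other end, with 32 of 46 expressed and a median of mean FPKM of 8.0. Il6st, the shared subunit of interleukin-6 family receptors, was at 88.9, 81.3 and 76.2 FPKM, Axl at 75.3 ± 4.1, the collagen receptor gene Ddr2 at 49.8 ± 3.2 and the hepatocyte growth factor receptor gene Met at 34.1 ± 3.1. The neurotrophin receptor genes Ntrk2, Ntrk3 and Ngfr were listed at 0.

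**Figure D4:**
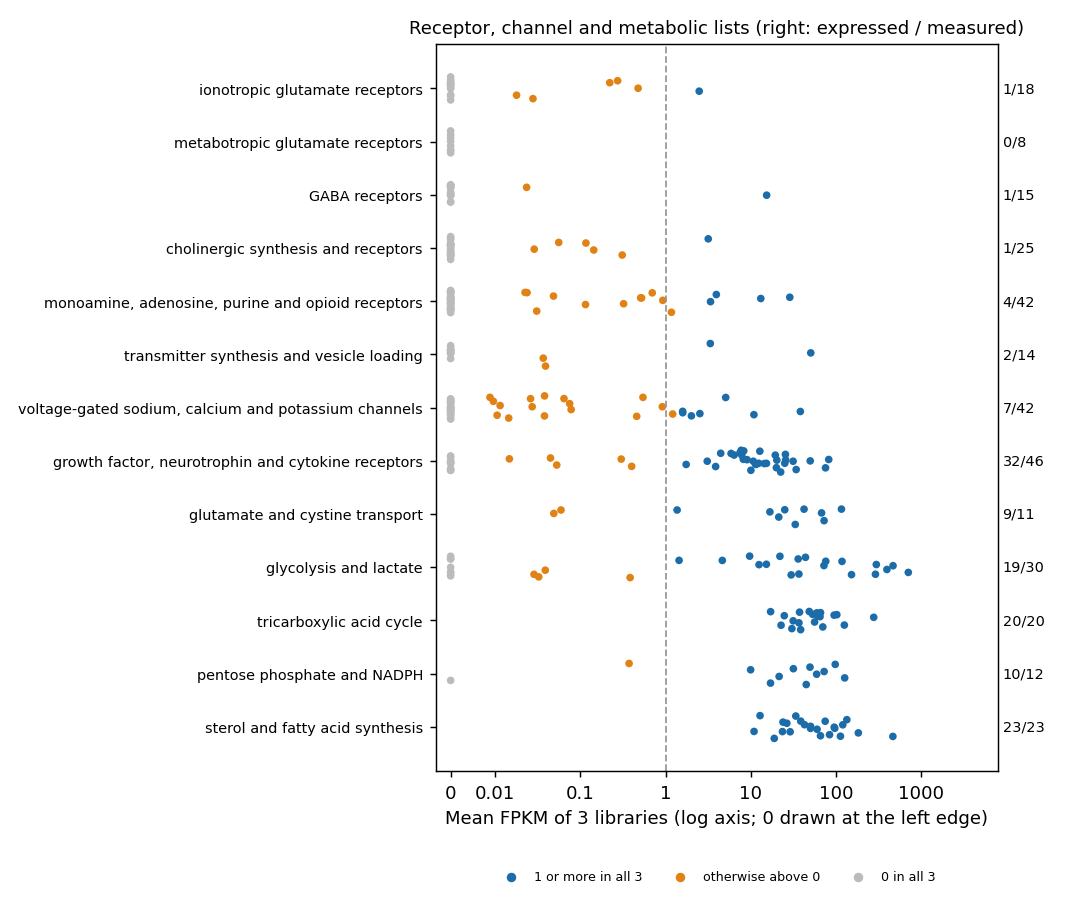
Mean FPKM of each gene (points; log axis, with 0 drawn at the left edge) in receptor, channel and metabolic lists (rows), coloured by class (blue expressed, orange low, grey listed at 0), with the number expressed of the number measured at the right. Transmitter receptor rows cluster at 0 with 0 to 4 blue points, and the citric acid cycle (20 of 20) and lipid synthesis (23 of 23) rows lie entirely right of the dashed line at 1 FPKM.

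Glutamate and cystine transport genes bear on the use of the line for glutamate toxicity. Of 11 genes, 9 were expressed. The cystine-glutamate exchanger is a pair of a heavy chain, Slc3a2, shared with other transporters, and a specific light chain, Slc7a11 (chr3:49892526-50443614, minus strand). Slc3a2 was at 74.4, 71.1 and 71.7 FPKM, and Slc7a11 at 1.55, 1.35 and 1.20 FPKM, about 41.4, 45.1 and 37.5 fragments. The heavy chain exceeded the light chain 48.1, 52.7 and 59.9 times per length. Slc7a5, another light chain that pairs with Slc3a2 to carry large neutral amino acids, was at 67.7 ± 7.2. The glutamine and neutral amino acid transporter genes Slc38a2 and Slc1a5 were at 116 ± 5.4 and 25 ± 1.9. Of the glutamate uptake carriers, Slc1a3 was the abundant member, and Slc1a2 and Slc1a1, the main glial and neuronal forms in brain, were at 0.0592 ± 0.034 and 0.0487 ± 0.084.

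In glycolysis, 19 of 30 genes were expressed, led by Pkm, Ldha, Eno1 and Aldoa. Pkm (pyruvate kinase) was at 695, 714 and 708 FPKM, Ldha (lactate dehydrogenase A) at 434, 487 and 480, Eno1 at 382, 397 and 409 and Aldoa at 294, 297 and 300. Ldha exceeded Ldhb 15.7 ± 0.79 times within a library. The glucose transporter gene Slc2a1 was at 72.1 ± 7.0, while Slc2a3, the neuronal form, was above 0 in replicate 1 alone (0.0857). Hk1 (43.8 ± 3.6) was above Hk2 (15.2 ± 2.9) in every library, and Hk3 and Pklr were listed at 0. Gapdh, an enzyme of the same pathway, was listed at 1.45, 1.38 and 1.49 FPKM. Of the 75-base windows of its transcripts, 22.6% are shared with a total of 118 other annotated genes, and how the authors' tool treated such reads is not given in the sources used here. A low value in these tables can thus belong to a gene that all cells use. Of 84 cytosolic ribosomal protein genes, Rpl17 was at 9.34, 2.06 and 0.892 FPKM and Rpl29 at 1.16, 0 and 0.497 FPKM, with 43.6% and 27.9% of windows shared.

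The citric acid cycle genes were complete, with 20 of 20 expressed and a median of mean FPKM of 54.6. Mdh2 was highest at 267, 290 and 274 FPKM, followed by the citrate synthase gene Cs (125 ± 2.3) and Pdha1 (102 ± 8.6), and the ranges of these genes did not overlap. Of 84 genes of complexes I to V, chosen as a family after values were seen, 76 were expressed, with a median of 68.1. In pentose phosphate and NADPH supply, 10 of 12 were expressed, led by Idh2 (126 ± 6.8), Taldo1 (97.9 ± 16), Idh1 (72.5 ± 3.8) and Pgd (59.2 ± 1.4). In sterol and fatty acid synthesis, 23 of 23 were expressed. The desaturase gene Scd2 was at 509, 448 and 438 FPKM, far above Scd1 at 65.7 ± 5.5, and Fdps (183 ± 18), Sqle (134 ± 5.7) and Hmgcs1 (120 ± 6.1) of the mevalonate and cholesterol route came next.

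Iron storage genes were the highest of the iron-handling groups. Of 8 genes of ferritin storage, iron chaperones and ferritin release, 7 were expressed, with a median of mean FPKM of 109. Fth1 exceeded Ftl1 1.60, 1.38 and 1.38 times in replicates 1 to 3 (1.45 ± 0.12), and the ranges of the 2 genes did not overlap. For Ftl1, 42.3% of 75-base windows are shared with other annotated genes, most with Ftl1-ps1, against 0.882% for Fth1. The cytosolic iron chaperone genes Pcbp2 and Pcbp1 were at 237 ± 20 and 144 ± 3.9. Bola2 and Glrx3, which bind a cluster together, varied more, at 47.5, 95.6 and 75.6 FPKM and at 10.6, 16.2 and 24.7 FPKM. Ncoa4 (chr14:32159865-32179855, plus strand), the ferritin cargo receptor that the study silenced in other cells, was at 6.46, 6.19 and 6.02 FPKM. It was the lowest expressed gene of the group, and it rested on about 88.6 to 106 fragments a library. Of its 75-base windows, 16.9% are shared with another annotated gene, Gm6768, and the effect of this on its level was not tested. Ftmt, the mitochondrial ferritin gene, was listed at 0.

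The IREs by which iron regulates several of these mRNAs are shown because the genes that carry them spanned the whole range of levels in these cells. A pattern of the core hairpin was searched on the sense strand of GENCODE M21 transcripts (GRCm38). It had an unpaired C, a stem of 5 bases, the loop CAGTG followed by a base other than G, and 5 bases that could pair with the stem (G-U pairs allowed). Of 20439 protein-coding genes, 266 held it (1.30%). Of these 266, 165 were expressed, 36 were low and 65 were listed at 0, against 48.4% of all protein-coding genes expressed. Any relation between the pattern and expression was not tested. Capitals mark the loop, and each sequence is 30 bases of transcript, 5′ to 3′.
Fth1, 5′ untranslated region, chr19:9982732-9982761, plus strand: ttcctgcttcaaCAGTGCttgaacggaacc
Ftl1, 5′ untranslated region, chr7:45459778-45459807, minus strand: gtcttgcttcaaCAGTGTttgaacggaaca
Slc40a1, 5′ untranslated region, chr1:45925464-45925493, minus strand: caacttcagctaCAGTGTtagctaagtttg
Tfrc, 3′ untranslated region, chr16:32631219-32631248, plus strand: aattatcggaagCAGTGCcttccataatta
Tfrc, 3′ untranslated region, chr16:32631710-32631739, plus strand: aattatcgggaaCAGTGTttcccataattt

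The genes that carry an element before the coding region are known to be held back at translation when iron is low, so their mRNA level does not show how much protein was made. Fth1 and Ftl1 stood at 1314 and 907 FPKM, and Slc40a1 was listed at 0. In Tfrc the pattern was found 4 times, all in the 3′ untranslated region, where binding is known to protect the mRNA. Its level was 72.5, 68.6 and 69.8 FPKM. No match was found in Slc11a2 or Epas1 transcripts, which says only that the letters of this pattern were not in them.

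For iron import and reduction, 8 of 15 genes were expressed, 2 were low and 5 were listed at 0. Tfrc (chr16:32608920-32632794, plus strand), the transferrin receptor gene, led the list and ranked 834 among protein-coding genes. Fth1 exceeded it 18.4, 18.7 and 19 times (18.7 ± 0.30), a narrow spread. Lrp1, a large endocytic receptor, was at 54.6, 46.1 and 37.3 FPKM. The ferrireductase gene Steap3, which acts in the endosome after transferrin uptake, was at 19.8 ± 0.33, and its relatives Steap1 and Steap2 were at 23.6 ± 3.6 and 11.3 ± 0.78. Slc11a2 (chr15:100387898-100425072, minus strand), the divalent metal transporter gene, was at 8.10, 9.39 and 9.58 FPKM, and Tfrc exceeded it 7.84 ± 0.96 times. The zinc and iron importers Slc39a14 (4.65 ± 0.56) and Slc39a8 (4.56 ± 0.28) overlapped. The second transferrin receptor gene Tfr2 was above 0 in replicate 1 alone (0.197). Cybrd1, Steap4, Lcn2, Slc11a1 and the transferrin gene Trf were listed at 0.

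Iron export genes were at the other extreme. Of 10 genes of export and hepcidin control, 3 were expressed, 2 were low and 5 were listed at 0. Slc40a1 (chr1:45908068-45926523, minus strand), the ferroportin gene, was listed at 0 in all 3 libraries, and no 75-base window of it is shared with another annotated gene. The ferroxidase gene Heph and the hepcidin genes Hamp and Hamp2 were also listed at 0. Cp, the ceruloplasmin ferroxidase gene, was expressed at 22.5, 25 and 23.1 FPKM. The porphyrin and heme exporter genes Abcg2 and Mfsd7b were at 13.2, 13.8 and 19.2 FPKM and at 9.29, 8.39 and 8.99 FPKM. Hfe, which takes part in iron sensing upstream of hepcidin, was at 0.414, 0 and 0.355 FPKM.

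The iron-sensing genes were all expressed (6 of 6). The iron regulatory protein genes Ireb2 (27.5, 22.7 and 26.1 FPKM) and Aco1 (18.2, 16.9 and 16.6 FPKM) did not overlap. Fbxl5, the iron-binding ubiquitin ligase subunit that removes IRP2, was at 29.7 ± 2.1, and its partners Skp1a and Cul1 were at 213 ± 4.7 and 54.5 ± 3.0. Herc2, which acts on FBXL5 and NCOA4, was at 19.4 ± 2.8.

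**Figure D5:**
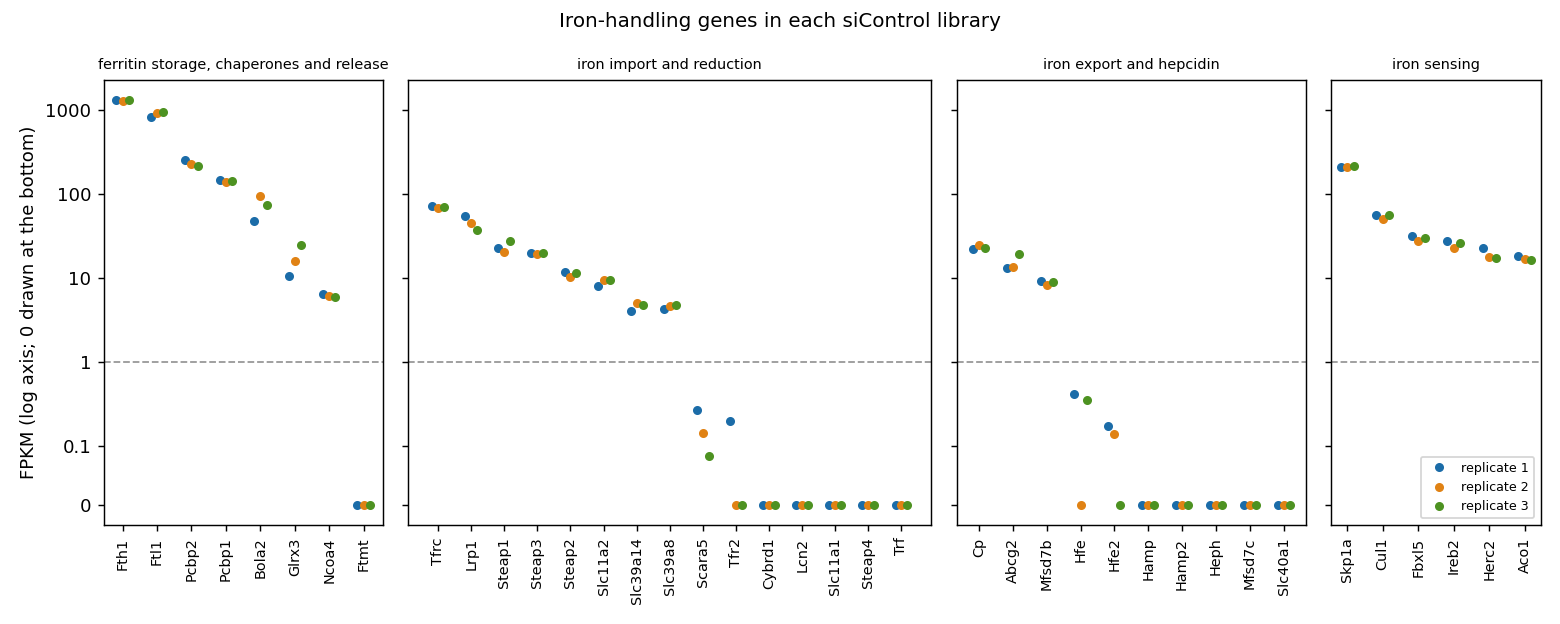
FPKM of each iron-handling gene in each siControl library (points, 3 colours; log axis, with 0 drawn at the bottom) in 4 lists of genes ordered by mean. Fth1 and Ftl1 lie near 1000 in all libraries, Tfrc near 70, Ncoa4 near 6, and Slc40a1, Heph, Hamp and Trf at 0 in each library.

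In iron-sulfur cluster assembly and mitochondrial iron, 24 of 24 were expressed, with a median of mean FPKM of 10.6. The chaperone gene Hspa9 stood apart at 248 ± 7.3, and Bola3 (58.5 ± 15), Glrx5 (38.7 ± 2.8) and Nfu1 (34.3 ± 5.4) followed. The scaffold gene Iscu was at 19.5 ± 2.9, the desulfurase gene Nfs1 at 9.69 ± 2.0 and the mitochondrial iron importers Slc25a28 and Slc25a37 at 12.7 ± 2.0 and 6.39 ± 1.1. In heme synthesis and breakdown, 13 of 14 were expressed. The first enzyme of synthesis was represented by Alas1 (7.90 ± 1.1), and its erythroid form Alas2 was listed at 0. The constitutive heme oxygenase gene Hmox2 (31.7 ± 1.1) was above the inducible Hmox1 (10.7 ± 0.39) in every library.

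Of 23 genes of ferroptosis and its defence, 20 were expressed. Sod1 was at 330, 437 and 451 FPKM, Txn1 at 245, 338 and 339 and Prdx1 at 230, 303 and 316, each lowest in replicate 1. Gpx4, which reduces lipid peroxides, was at 119, 158 and 156 FPKM, and Aifm2, which protects membranes by another route, at 8.39 ± 0.89. The glutathione synthesis genes Gclm, Gclc and Gss were at 27.4 ± 3.9, 15.7 ± 1.3 and 8.13 ± 1.3, and Acsl4, which supplies oxidizable lipids, at 44.2 ± 2.5. The 3 genes listed at 0 were the lipoxygenases Alox5, Alox12 and Alox15.

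Proliferation genes were uniformly expressed, with 28 of 28 above the call and a median of mean FPKM of 48.5. Top2a was at 276, 248 and 257 FPKM, Cdk4 at 195, 226 and 227, Mki67 at 202, 174 and 170 and Birc5 at 134, 168 and 169. Of 15 inhibitors and p53 pathway genes, 11 were expressed, with Trp53 at 54.9 ± 3.2, Cdkn2c at 50.4 ± 4.3 and Cdkn1b at 33.7 ± 1.1. Cdkn2a and Cdkn2b, neighbouring inhibitor genes, were listed at 0. Replication-dependent histone genes, chosen after values were seen, were expressed in 58 of 65 cases. Of the X- and Y-linked genes, Ddx3x was at 150 ± 8.8, Xist was above 0 in replicate 1 alone (0.0270, about 1.40 fragments), and the Y-linked Ddx3y, Eif2s3y, Kdm5d, Uty and Sry were listed at 0.

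Noncoding RNAs dominated the ranking over all genes. Genes for small RNAs held 41.2%, 38.1% and 39.1% of the summed FPKM in replicates 1 to 3 and made up 19 of the 20 highest genes. Because FPKM divides by length, their share depended on the scale: over genes with a known transcript length, the same RNAs held 42.7%, 39.2% and 39.99% of FPKM but 6.79%, 5.75% and 5.94% of FPKM multiplied by length. Rmrp, the RNA of a ribonuclease that processes ribosomal RNA, was highest at 39661, 25994 and 25059 FPKM. The nucleolar RNAs Snord33 (22936 ± 3315) and Snord22 (17766 ± 2247) and the ribosomal RNA precursor Rn45s (21048, 15966 and 13084 FPKM) came next. Snord99 and Snord49a were the least steady of the first 10, at 10668, 12362 and 2320 FPKM and at 1981, 14448 and 5087 FPKM. Snord1b, Snord55, Snord15b and Snord104 had means from 9007 to 13704. Among long noncoding RNAs, Malat1 and Neat1 were at 2738 ± 362 and 540 ± 48, and the imprinted H19 and Meg3 were at 0.0509 ± 0.088 and 0. Of 1153 genes with the RefSeq biotype miRNA and a name made of Mir or Mirlet7 and a number or letter, 6 were expressed and 1122 were listed at 0 in these total RNA libraries.

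The genes listed at 0 were drawn partly from large sensory and small RNA families. Of 10478 such genes, 2520 (24.1%) were olfactory receptor, vomeronasal receptor or microRNA genes, families chosen after values were seen. No olfactory receptor gene was expressed, 19 of 1102 were low and 1083 were listed at 0, and for vomeronasal receptors 12 of 327 were low and 315 were listed at 0. Of the 3573 low genes, 1321 were above 0 in a single library, 744 in a pair of libraries and 1508 in all 3. Another 131 of 38209 values above 0 were under 0.005 FPKM, some by many orders of magnitude, so they represent no whole fragment. Because Rpl29 was listed at 0 in replicate 2, a listed 0 was not read as absence of the transcript.

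Expressed genes and genes listed at 0 had promoters of different composition. The genes listed at 0 include large sensory receptor families, whose part in this difference was not tested. RefSeq windows of 300 bases (250 before and 50 after the annotated start, GRCm38.p6) were matched for 16393 protein-coding genes with 20007 starts. The median number of CG dinucleotides was 21 for starts of expressed genes, 8 for low genes and 4 for genes listed at 0, against 14 over all starts. The letters TATAAA on the sense strand, between bases 201 and 240 of the window, were found at 1.13% of starts of expressed genes, 2.84% of starts of low genes and 5.67% of starts of genes listed at 0, against 2.93% of all. Among the 100 highest protein-coding genes, of which 74 were matched, 7 of 85 starts held it (8.24%). Without ribosomal protein genes, 7 of 48 starts of this group held it (14.6%). Over ribosomal protein genes, 1 of 72 starts did (1.39%). A start with C and then 4 pyrimidines, the kind of start known from mRNAs of the translation machinery, was found at 13 of 72 starts of ribosomal protein genes (18.1%) and at 2.24% of all starts. Starts of the same gene share sequence and are not independent, and these matches are descriptions of the annotated windows.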

How the data were processed

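Total RNA libraries (SMARTer Stranded Total RNA-Seq Pico kit) were sequenced as read pairs. The authors deposited FPKM per gene, 1 table per library. The submitters' processing notes name Trimmomatic 0.33, FastQC, HISAT2 2.1.0, featureCounts, edgeR and build mm10, with no role given. Per the study's methods, the authors normalized the data and tested differences with edgeR. The tool that made the FPKM, its annotation and its handling of shared reads are not given in the sources used here. Each table held 24347 entries. The 4 entries that shared a name were dropped, and 23 of 27 names turned into dates were restored. Biotypes came from RefSeq (24229 genes matched). Rn7sk and 2 other listed RNAs were not found under their names and were left out. Groups came from the labels. Means, SDs and ranks were computed with Python 3.11.15, numpy 2.4.6 and pandas 2.3.3, with a pseudocount of 0.1 for correlations. Fragment steps were tested on simulated data. Transcripts, lengths, coordinates and shared 75-base windows came from GENCODE M21. Gene lists and the choice of these libraries were made with earlier results of these data known, and families were added after values were seen. Named genes were the 15 highest protein-coding and 10 highest noncoding genes, the 5 identity markers, the 4 highest and all defining members of each list, all iron genes, and the 5 highest and 5 lowest coefficients of variation. Further list members named as listed at 0 or as family examples were chosen after their values were seen. Alternative thresholds, scalings, pseudocounts and leave-one-out sets were computed. Some genes and a sequence that this rule names are not reported here.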

Additional observations from a re-analysis of the deposited data

How the results depend on the processing

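The number of genes expressed lay between 9630 (FPKM of at least 2) and 10956 (rescaled without small RNA genes), and the number listed at 0 between 10478 and 11799 (0 in at least 2 libraries). The microglia list went from 1 to 2 expressed genes with an FPKM of at least 0.5, with a mean of at least 1, or when rescaled without small RNA genes, and leaving out single libraries gave 1 to 2. With an FPKM of at least 2, ionotropic glutamate receptors went from 1 to 0 expressed genes and voltage-gated channels from 7 to 3, and rescaling without small RNA genes gave 2 ionotropic glutamate receptors and 7 monoamine, adenosine, purine and opioid receptors in place of 1 and 4. The 100 highest genes held 50.2% of FPKM, and 28.6% without small RNA genes. The mean correlation of replicates was 0.983, and was 0.986 with a pseudocount of 1 and 0.972 with 0.01. Rescaling without small RNA genes also set the remaining genes of each library to a common sum, larger than the deposited total. Levels were thereby multiplied by 2.71, 2.62 and 2.63 in replicates 1 to 3. This moved the level of each named gene without moving ratios within a library. Counts after this rescaling thus also reflect a change of unit, in effect a lower threshold, and not only the removal of small RNA genes. Leaving out single libraries moved the median level of the voltage-gated channel list between 0 and 0.0150, and leaving out replicate 1 moved that of the cell cycle list from 48.5 to 50.3. No paired analysis was possible because the libraries form 1 group. The total of about 2900000 to 3620000 fragments implied by the FPKM scale limits values below about 0.1 FPKM, and higher values on short transcripts. Zeros were not read as absence.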
